A study of Mus musculus with 58 samples.

Results

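The comparison described here is that of APOE4 with APOE3 mice after sham surgery, both with 2 functional copies of Abca1. It held 15 of the 58 mice of the series, chosen by their labelled genotype and treatment: 8 E3/Abca1+/+ sham mice (4 male, 4 female) and 7 E4/Abca1+/+ sham mice (4 male, 3 female). All were targeted replacement mice on a C57BL/6 background, in which human APOE3 or APOE4 takes the place of the mouse gene in both copies. Surgery was done at 3 months of age, and every sham mouse had anesthesia and a craniotomy over the left parietal cortex without an impact, so the sham brain was operated but not struck. Hippocampus and cortex around that site were taken 14 days later and sequenced together as 1 RNA sample per mouse. The mixture cannot tell fewer cells of a type from less RNA per cell, and each isoform is represented by 1 targeted line.

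APOE is the main lipid carrier protein of the brain, made largely by astrocytes and loaded with cholesterol and phospholipid by the transporter ABCA1. The APOE4 protein differs from APOE3 by a single amino acid, is less well lipidated and is the strongest common genetic risk factor for late-onset Alzheimer's disease. The comparison sets the transcriptomes of APOE4 and APOE3 mice side by side with neither an impact nor loss of an Abca1 copy. Isoform and targeted line cannot be told apart in it.

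Total counts ranged from 4421308 to 15941530 in the APOE3 libraries and from 4695676 to 14064531 in the APOE4 libraries, and the mean log10 total differed by 0.0107 (two-sided exact permutation test, p = 0.926). Xist counts matched the labelled sex in 15 of 15 mice. Markers of the dissected tissue were present in all mice and were not called. Slc17a7, of excitatory neurons, had medians of 1550 CPM (counts relative to the TMM-scaled library total) in APOE3 and 1435 CPM in APOE4 mice, and Slc1a2, of astrocytes, had 3971 and 3851 CPM. APOE4 female replicates 5 and 7 stood apart through Ttr, which choroid plexus makes in quantity, at 800 and 949 CPM against at most 11.1 CPM in the other 13 mice. APOE3 male replicate 8, whose identifier begins with another letter than those of the other APOE3 mice, lay nearest to the APOE4 mice of all APOE3 mice in 13 of the 50 genes called below.

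Of 14172 genes tested, 30 were higher and 20 lower in APOE4 than in APOE3 sham mice (edgeR's quasi-likelihood test, Benjamini-Hochberg adjusted p under 0.05), or 0.353% of all genes (0.212% higher, 0.141% lower). At an unadjusted p under 0.05 there were 653 higher (4.61%) and 577 lower genes (4.07%), together 8.68% of all genes, the background for the unadjusted counts of lists below. Among the 50 called genes, 12 had a log2 fold change of 1 or more in either direction and 29 one under 0.5, and the median absolute value was 0.45 against 0.06 for all genes tested. The filter keeps a gene abundant in only 1 group, so some wide changes passed through the higher group alone. Serpina3m and Eps8l1 had at most 0.454 and 0.865 CPM in APOE3 mice, and Gm20186 and Ighg2c at most 0.072 and 0.288 CPM in APOE4 mice. With at least 10 counts required in every mouse, 40 of the 50 could be tested and 37 were called. CPM values of the 2 groups did not overlap in 22 of the 50, and in 36 of all genes tested (0.254%). Without APOE3 replicate 8 the test called 58 higher and 28 lower genes, and without the 2 mice high in Ttr it called 19 and 13. Leaving out any other single mouse gave 17 to 32 higher and 10 to 21 lower genes. The count of higher genes fell to 17 without APOE3 replicate 4 and 19 without APOE4 replicate 1, and that of lower genes to 13 without APOE3 replicates 2, 5 or 6, to 12 without APOE4 replicates 1 or 5 and to 10 without APOE4 replicate 6. Of the 50 calls 24 held without the 2 mice high in Ttr and without each single mouse, where tested (Ptprh in only 6 omissions). Lost both without the former (adjusted p 0.0524 to 0.193 over the 23 calls lost there) and in at least 1 omission of a single mouse were 20 calls, those of Asns, Cacul1, D430020J02Rik, Gm12663, Gm9769, Gng11, Ica1, Mfn1, Mt3, Nat8f5, Ncl, Nedd8, Nelfcd, Nudt3, Nudt4, Tmc4, Tra2b, Ubap1, Ube2d3 and Wwc2. Bex2, Fank1 and Frmd4b were lost only without the mice high in Ttr, and Alkbh6, Hrk and Nabp2 only in omissions of a single mouse. Mt3 was the 1 call lost without APOE3 replicate 8 (adjusted p = 0.0551, edgeR). All 50 genes kept their sign in males alone, in females alone and in libraries over 9000000 counts, as did the 47 that could be tested in libraries under 9000000. These subsets are parts of the mice that gave the calls, so the shared sign is no independent evidence. The call itself was kept by 9 genes in males, 9 in females, 11 in libraries over 9000000 counts and 6 in those under 9000000.

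**Figure D1:**
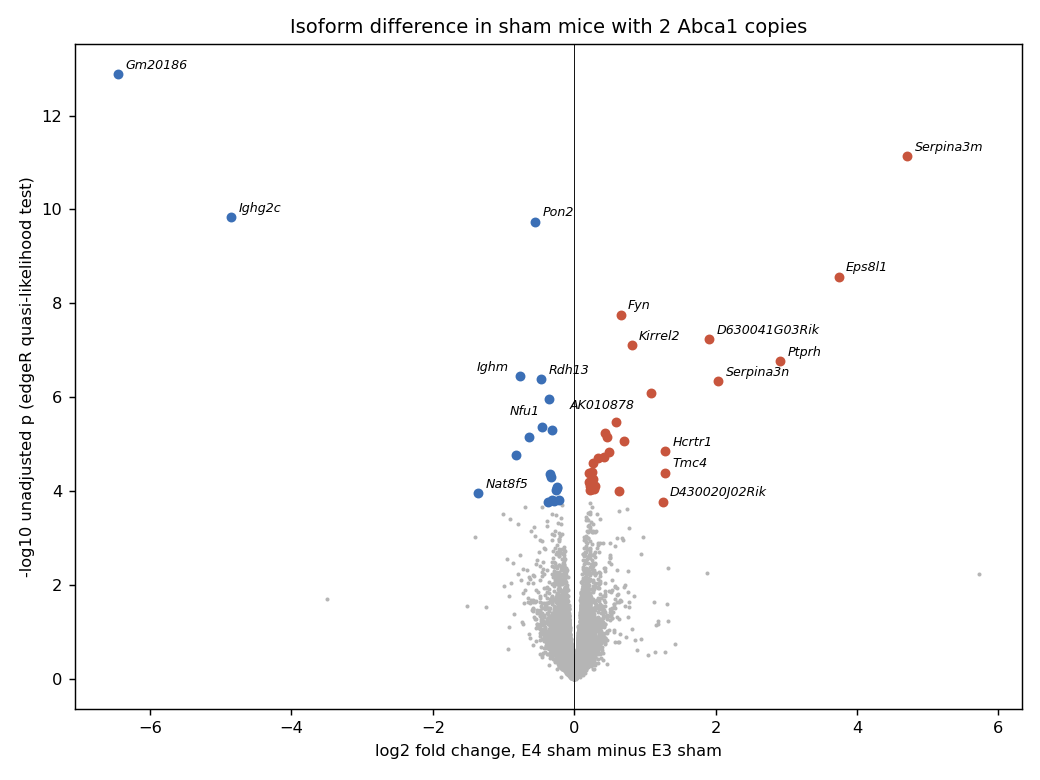
Log2 fold change of APOE4 against APOE3 sham mice (x) and −log10 of the unadjusted p from edgeR's quasi-likelihood test (y) for 14172 genes, each point a gene. The 30 genes called higher (red) and 20 called lower (blue) are drawn larger, and the widest changes among them are Serpina3m at 4.71 and Gm20186 at −6.45.

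The serine protease inhibitors of the Serpina3 cluster were among the genes with the widest changes. Serpina3n encodes a secreted inhibitor that reactive astrocytes make in quantity. It had 16.8, 27.1 and 33.4 CPM (lowest, median and highest of 8) in APOE3 mice and 62.5, 95.3 and 163 CPM in the 7 APOE4 mice. Every APOE4 mouse was above every APOE3 mouse, and the mean was 4.08 times as high (log2 fold change 2.04, standard error (SE) 0.23, adjusted p = 0.000545, edgeR's quasi-likelihood test). Males alone gave 2.06 and females alone 2.03 on the log2 scale. Serpina3m, its neighbour, had 1 to 3 counts per library in APOE3 mice and 21 to 81 in APOE4 mice, without overlap. Pooled over mice the ratio was 27.6 (95% exact interval 16.2 to 51, counting error only), and the log2 fold change was 4.71 (SE 0.36, adjusted p = 5.12e-08, edgeR).

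Serpina3f, Serpina3h and Serpina3i of the cluster had counts too low for the filter and were also higher. Serpina3h had 8 counts over all APOE3 and 172 over all APOE4 libraries (ratio 24.9, interval 12.3 to 58.5), and Serpina3f had 4 and 47 (ratio 13.6, interval 4.97 to 51.9). These intervals cover counting error only and not the spread between mice. The groups overlapped for Serpina3h, with 0 to 0.865 CPM in APOE3 and 0.147 to 6.99 CPM in APOE4 mice. Serpina3i had 0 counts in 8 of 8 APOE3 mice and 32 counts in the APOE4 mice, at least 12.3-fold higher against a floor of 3 counts over the APOE3 group. Among the APOE4 mice 1 also had 0 counts of Serpina3i. Tested without the filter, Serpina3f, Serpina3h and Serpina3i had adjusted p values of 0.00177, 0.0103 and 0.0131 (edgeR). Serpina3g did not follow them, with medians of 1.25 CPM in APOE3 and 0.792 CPM in APOE4 mice and a log2 fold change of −0.34 (95% interval −1.10 to 0.42, adjusted p = 0.893, edgeR). These genes are near copies of each other, and how reads that fit several of them were counted is not given in the sources used here, so their separate values are uncertain.

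The promoters of 4 of these genes were in the RefSeq promoter table (GRCm38.p6), and over the 300 bases around the start the Serpina3n promoter shared 71.3% of aligned bases with that of Serpina3i and 51.2% with that of Serpina3g. The Serpina3g promoter shared 79.7% with that of Serpina3i (138 gap positions) and 49.6% with that of Serpina3f (40 gap positions). The windows below are shown because 3 of the 4 genes share a letter pattern there, TTCNNNGAA, the core recognised by STAT factors, that Serpina3n lacks. It begins at −33 from the annotated start in Serpina3g, −102 in Serpina3i and −121 in Serpina3f. The 300 bases of Serpina3g thus cover a shifted stretch, and its low shared percentages are no measure of unlike sequence. Capitals mark the pattern, or the bases aligned to it in Serpina3n, on the gene strand.
Serpina3f (chr12:104214412-104214441): atcagttctatTTCCTAGAAatcacccatt
Serpina3g (chr12:104236103-104236132): ataagttatagTTCCCAGAAatcacccggt
Serpina3i (chr12:104263009-104263038): gtaagtgcttgTTCCCAGAAatcacccagt
Serpina3n (chr12:104406574-104406603): acaaatccatgTTACCAGAAatcatccagt
Within the capitals Serpina3n carried C3A relative to Serpina3i, counted from the first capital, and the windows also differed outside them. The pattern, searched on both strands, is in 8.3% of all promoters of that table, and Serpina3g, which holds it, was not called.

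**Figure D2:**
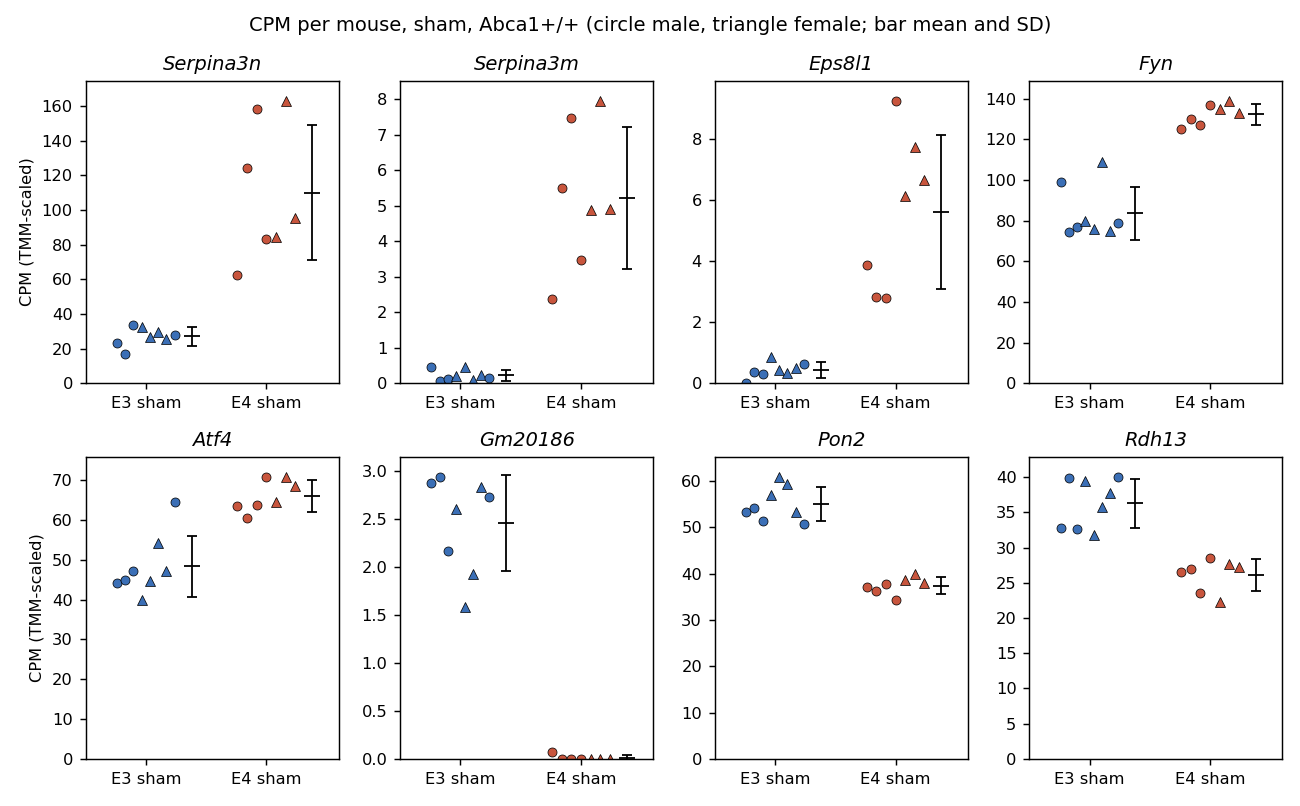
CPM (TMM-scaled) in each sham mouse for 8 called genes, E3/Abca1+/+ (blue, n = 8) beside E4/Abca1+/+ (red, n = 7), with circles for males, triangles for females and bars for mean and SD. The groups are separate in all panels but that of Atf4, where APOE3 replicate 8 at 64.6 CPM lies among the APOE4 mice.

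Fyn, Kirrel2, Eps8l1 and Ptprh, of kinase signalling, adhesion and the actin skeleton, rose as well. Fyn, a Src-family tyrosine kinase of neurons and oligodendrocytes, had 74.2, 78 and 109 CPM in APOE3 mice and 125, 133 and 139 CPM in APOE4 mice. The groups were separate although 2 APOE3 mice, at 98.9 and 109 CPM, stood above the others of their group. Its log2 fold change was 0.66 (SE 0.07, adjusted p = 4.16e-05, edgeR's quasi-likelihood test). Kirrel2, an adhesion molecule of the immunoglobulin superfamily, had 7.37, 9.73 and 12.6 CPM in APOE3 and 14.2, 17.4 and 18.6 CPM in APOE4 mice (log2 fold change 0.81, adjusted p = 0.000137, edgeR). Eps8l1, related to the actin regulator EPS8, went from 0, 0.409 and 0.865 CPM to 2.79, 6.15 and 9.27 CPM (log2 fold change 3.74, SE 0.36, adjusted p = 7.78e-06, edgeR). The receptor-type tyrosine phosphatase gene Ptprh rose by 2.91 on the log2 scale (adjusted p = 0.000267, edgeR), with 1 APOE4 mouse inside the APOE3 range at 0.636 CPM.

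The other higher genes with the smallest p were AK010878, 4933421O10Rik, Lyrm7, Ublcp1 and D630041G03Rik. AK010878 rose by 1.09 and 4933421O10Rik by 0.70, both transcripts of unassigned function, and 6 of 7 APOE4 mice lay above all APOE3 mice in each. Lyrm7, an assembly factor of respiratory complex III, rose by 0.59, and Ublcp1, a phosphatase of the nuclear proteasome, by 0.47. D630041G03Rik rose by 1.91 without overlap of the groups, but its annotated span lies within that of Eps8l1 and of Rdh13, and reads of the 3 cannot be told apart without strand. The other genes called higher included the orexin receptor Hcrtr1 (1.29), the G protein subunit Gng11 (0.64), the noncoding Zfas1 (0.49), the spliceosomal Snrpd1 (0.42), nucleolin, Ncl (0.21), and the ubiquitin-conjugating enzyme Ube2d3 (0.22), all named after their values were seen.

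Atf4, the transcription factor that cells translate when amino acids are short or the endoplasmic reticulum is stressed, rose with 1 of its known targets. Atf4 had 40, 46 and 64.6 CPM in APOE3 mice and 60.4, 64.4 and 70.9 CPM in APOE4 mice, a log2 fold change of 0.44 (SE 0.07, adjusted p = 0.00451, edgeR's quasi-likelihood test). The overlap came from APOE3 replicate 8 alone, since the other 7 APOE3 mice lay between 40 and 54.1 CPM, and without it the log2 fold change was 0.51 (adjusted p = 3.05e-05). Asns, asparagine synthetase, had 93.5, 102 and 126 CPM in APOE3 mice and 118, 126 and 130 CPM in APOE4 mice (log2 fold change 0.25, SE 0.05, adjusted p = 0.0309). Asns was not called without the 2 mice high in Ttr (0.27, adjusted p = 0.0715) nor in 10 of 15 omissions of a single mouse (adjusted p 0.0586 to 0.0891 in these). Of 29 tested ATF4 target and amino acid genes, Atf4 among them, these 2 rose and 0 fell. Of the 29, 22 were above 0, with a median of 0.09 against 0.00 for all genes. At an unadjusted p under 0.05, 7 were higher and 2 lower (31% against 8.68% of all genes). The lowest log2 fold change was −0.52, of Nupr1. Without APOE3 replicate 8, where 58 higher and 28 lower genes were called in all, 4 members of the list were called. The 2 beside Atf4 and Asns were Chac1, a glutathione-degrading enzyme (0.61, adjusted p = 0.0242, edgeR), and Slc7a5, a large neutral amino acid transporter (0.28, adjusted p = 0.0229).

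Cytosolic aminoacyl-tRNA synthetases, which charge tRNAs with amino acids, had mostly positive values, none of which passed the test. The list also holds Aimp1, Aimp2 and Eef1e1, partner proteins of the synthetase complex that charge no tRNA. Of 23 members tested 0 were called, 18 had a positive log2 fold change, 5 were higher and 1 lower at an unadjusted p under 0.05 (26.1% against 8.68% of all genes), and the median was 0.05. Iars (isoleucine) had 63.6, 67.9 and 71.3 CPM in APOE3 and 71.4, 76.6 and 79.6 CPM in APOE4 mice, values that did not overlap (log2 fold change 0.17, adjusted p = 0.0777, edgeR). Gars (glycine) had a log2 fold change of 0.16 (adjusted p = 0.144). Without APOE3 replicate 8, Cars (0.29, adjusted p = 0.0229, edgeR), Gars (0.18, adjusted p = 0.0432) and Yars (0.17, adjusted p = 0.0474) were called. That omission gave 58 higher and 28 lower genes among all tested, the most of any single omission. DESeq2's Wald test, which also called more genes in total, called 2 synthetases. Some of the synthetase genes were picked out by the study in these libraries, so the list is no independent evidence of direction. The 17 mitochondrial synthetases had 0 called and a median of 0.02.

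ATF4 acts through composite C/EBP-ATF elements, whose core TGATGNAA was searched on both strands in RefSeq promoters (GRCm38.p6, 250 bases before to 50 after the start). It was found in 3.97% of all 32851 promoters and in those of 2.7% of 11028 tested genes. In the cytosolic synthetase list 5 of 16 members with a promoter entry had it (31.2%), and 6 of 24 ATF4 target genes (25%). The 5 synthetases were Aars, Gars, Iars, Tars and Yars. Their median log2 fold change was 0.15 with 5 of 5 positive, and that of the other 11 was 0.01 with 8 positive. Among the ATF4 target genes the 6 with a match had a median of 0.03 with 3 positive, and the other 18 one of 0.09 with 15 positive. The windows below show the match, in capitals on the gene strand, in the called Asns and in the 3 synthetases that contain it and had a log2 fold change of at least 0.15. They were picked by values of these same mice, so they are no test of a link between match and level. Not shown are other genes with a match, among them Aars at 0.06 and Nupr1 at −0.52.
Asns (chr6:7693214-7693243, minus strand): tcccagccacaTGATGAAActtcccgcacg
Gars (chr6:55037960-55037989, plus strand): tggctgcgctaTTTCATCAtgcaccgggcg
Iars (chr13:49682126-49682155, plus strand): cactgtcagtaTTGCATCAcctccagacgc
Yars (chr4:129189895-129189924, plus strand): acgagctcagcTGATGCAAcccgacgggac
In Gars and Iars the match is on the opposite strand. A match is a string of letters and not an observed binding site.

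The gene with the smallest p of all fell. Gm20186, a predicted gene on chromosome 6 without coordinates in the RefSeq table, had 1.58, 2.66 and 2.94 CPM in APOE3 mice, while 6 of 7 APOE4 mice had 0 counts and the other had 1 (188 counts against 1, ratio 163, interval 28.8 to 6455). Immunoglobulin heavy chain transcripts also fell. Ighg2c, an IgG constant region, had 1.7, 2.4 and 4.01 CPM in APOE3 mice and 0 counts in 5 of 7 APOE4 mice (187 counts against 5, ratio 32.3, interval 13.6 to 101). Ighm, the IgM constant region, had 13.8, 20.3 and 25 CPM in APOE3 and 10.2, 11.6 and 12.8 CPM in APOE4 mice (log2 fold change −0.77, SE 0.11, adjusted p = 0.000514, edgeR's quasi-likelihood test). Both were separate between the groups. The list of blood cell genes, among them Cd79a of B cells, had no member abundant enough to test, and its summed level was 0.45 to 3.05 CPM in APOE3 and 1.67 to 16.9 CPM in APOE4 mice.

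Pon2, Rdh13 and Nfu1 fell without overlap of the groups. Pon2, an intracellular lactonase that limits oxidative damage, had 50.8, 53.7 and 61 CPM in APOE3 and 34.4, 37.8 and 39.9 CPM in APOE4 mice. Its groups were far apart relative to their spread, with a log2 fold change of −0.55 (SE 0.05, adjusted p = 6.45e-07, edgeR's quasi-likelihood test). Rdh13, a mitochondrial retinol dehydrogenase, had 31.8, 36.8 and 40.1 CPM in APOE3 and 22.3, 26.9 and 28.5 CPM in APOE4 mice (−0.47, adjusted p = 0.000542, edgeR). Nfu1, which delivers iron-sulfur clusters in mitochondria, had 27.3, 28.2 and 30.5 CPM against 21, 22.4 and 24.3 CPM (−0.35, adjusted p = 0.00109). Spr, sepiapterin reductase of tetrahydrobiopterin synthesis, fell by 0.46 and Dctd, deoxycytidylate deaminase, by 0.64 on the log2 scale. Hn1 (−0.31), Alkbh6 (−0.33), Ica1 (−0.34) and Fank1 (−0.82) complete the 12 lower genes with the smallest p. Further down the list, and named after their values were seen, Mfn1 of mitochondrial fusion fell by 0.26, the brain metallothionein gene Mt3 by 0.21, the ubiquitin-like Nedd8 by 0.31 and the BH3-only gene Hrk by 0.28.

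Chromosomes 6, 7 and 12 held 10, 8 and 6 of the called genes, 1.42%, 0.751% and 1.15% of the genes tested there against 0.353% overall. Of 48 called genes with coordinates, 23 lay within 5 Mb of another, in 7 stretches, a distance chosen after the positions were seen. The same count was not made for other tested genes, so these numbers do not show clustering. On chromosome 7 (GRCm38.p6), Tmc4, Rdh13, Eps8l1, D630041G03Rik and Ptprh stood within 0.938 Mb, from 3665754 to 4604041, 4 of them higher and 1 lower. The other 12 of the 17 genes tested in that stretch were not called, and the median of all 17 was 0.06. Just outside it, Oscar, the osteoclast-associated receptor gene at 3609813, had 13 counts over the APOE3 and 79 over the APOE4 libraries (ratio 7.03, interval 3.88 to 13.8), and the ribosomal protein gene Rpl28 at 4792965 had a log2 fold change of −0.80 (adjusted p = 0.0912, edgeR). On chromosome 12, AK010878, Serpina3m and Serpina3n lay within 1.66 Mb among 14 genes tested, and Ighg2c, Ighm and D430020J02Rik (1.25, higher) within 3.12 Mb among 7. On chromosome 6, Gng11, Pon2, Asns and Ica1 lay within 4.77 Mb, 2 of them higher and 2 lower, and Spr, Nat8f5, Gm9769 and Nfu1 within 1.89 Mb, where Gm9769 was higher and the other 3 were lower. These 2 stretches held 26 and 33 tested genes, with medians of 0.00 and −0.01.

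The replaced gene itself lies on chromosome 7 at 19696244 to 19701310. Reads assigned to mouse Apoe gave 17.1, 17.9 and 20.7 CPM in APOE3 and 16.1, 19 and 22.5 CPM in APOE4 mice (log2 fold change 0.01, 95% interval −0.16 to 0.17). This is no measure of the human transcript, since the coding part was replaced. Of 85 other genes tested within 5 Mb of Apoe 0 were called by edgeR's quasi-likelihood test, the unadjusted p was under 0.05 for 6 of them (7.06%, against 8.68% of all genes), and their median was −0.03. The 5 genes near the start of the chromosome lay at −16.03 to −15.15 Mb from Apoe, and Alkbh6 and Kirrel2 were 10.61 and 10.75 Mb from it on the other side. Abca1, present in 2 copies in all 15 mice, had medians of 47 and 47.9 CPM (log2 fold change −0.07, 95% interval −0.27 to 0.12, adjusted p = 0.922).

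**Figure D3:**
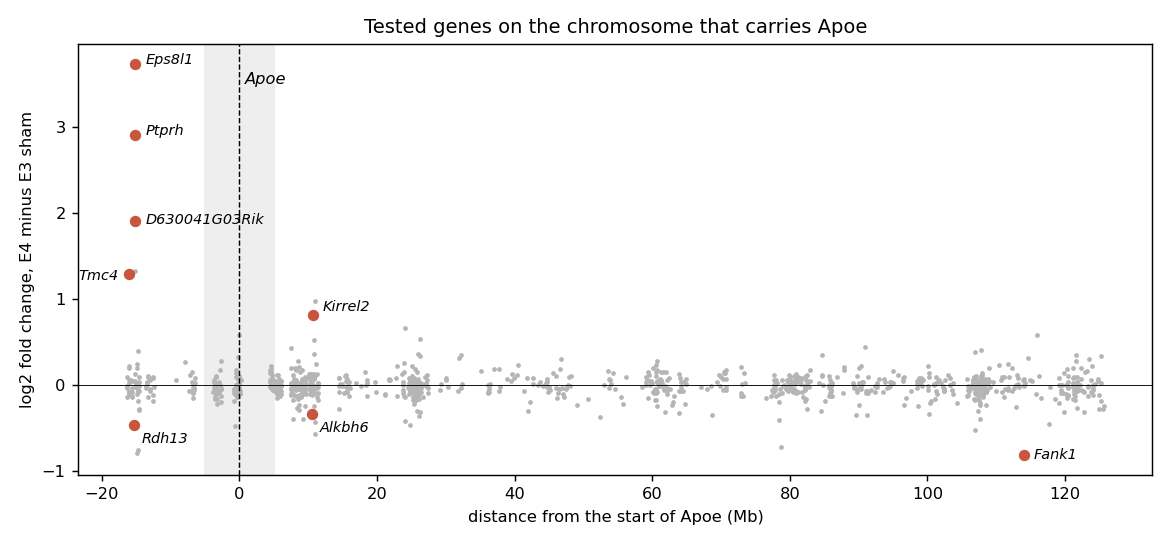
Log2 fold change of APOE4 against APOE3 sham mice (y) for the tested genes of chromosome 7, by distance in Mb from the start of Apoe (x), with called genes in red and a grey band of 5 Mb on either side of Apoe. No called gene lies in the band, and the widest changes sit at −16.03 to −15.15 Mb.

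The lists of lipid genes, to which APOE and ABCA1 belong, had 0 called members. Among 24 lipid transport and LXR genes the median was 0.01, and the smallest p values belonged to Clu, another apolipoprotein of astrocytes (−0.11, adjusted p = 0.276), and Lipa, the lysosomal acid lipase gene (0.20, adjusted p = 0.563). The 15 LDL receptor family genes had a median of −0.07, and the 28 genes of sterol and fatty acid synthesis had a median of 0.00 with 3 members higher and 1 lower at an unadjusted p under 0.05 (14.3% against 8.68%). Hmgcs1 (0.23, adjusted p = 0.291) and Cyp51 (0.16, adjusted p = 0.563) led the latter. At n = 8 and 7 the 95% intervals of these 2 reached from 0.07 to 0.39 and from 0.01 to 0.31.

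Of the glial and immune lists 1 had a called member. In the reactive astrocyte list Serpina3n was the 1 member called of 18 tested, and the median was 0.03. The 18 homeostatic astrocyte genes had 0 called and a median of −0.01, with Aldoc at −0.14 (adjusted p = 0.167). Homeostatic microglia genes had 14 of 18 values below 0 and a median of −0.06, with 0 called and Tyrobp, the adaptor of microglial receptors, at −0.30 (adjusted p = 0.207). Complement genes had 13 of 16 below 0 and a median of −0.03, with C1qa at −0.26 (adjusted p = 0.258) and C1qb at −0.23 (adjusted p = 0.515). The 16 disease-associated microglia genes, the 27 MHC class I and interferon genes and the 7 MHC class II genes had medians of −0.01, 0.06 and −0.09 with 0 called. Myelin genes had 17 of 19 values above 0 and a median of 0.17, the widest of the glial lists, with Mbp at 0.23 (adjusted p = 0.476). The thalamic, striatal and midbrain markers had a median of 0.15 with 15 of 20 above 0 and 0% at an unadjusted p under 0.05. Their summed level had a median of 323 CPM in APOE3 and 330 CPM in APOE4 mice. The part of such tissue in the myelin values was not tested.

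Neuronal, ribosomal and energy genes gave 0 called members. The 32 neuronal and synaptic genes and 23 immediate early genes had medians of −0.01 and −0.02. Hippocampal region markers had 14 of 18 below 0 and a median of −0.08, with Cpne7 at −0.39 (adjusted p = 0.471), and cortical layer markers a median of −0.01. Of the hippocampal markers 16.7% were at an unadjusted p under 0.05, against 8.68% of all genes. All 13 mitochondrially encoded genes were above 0, with a median of 0.13, 5 of them at an unadjusted p under 0.05 (38.5% against 8.68% of all genes), and their summed level was 24806 to 32278 CPM in APOE3 and 28885 to 36003 CPM in APOE4 mice. ND1 and ND2, the 2 of these with the smallest p, had log2 fold changes of 0.16 and 0.17 here. They had 0.01 and 0.04 in injured mice with 2 copies. In mice with 1 copy they had −0.12 and −0.06 after sham surgery and −0.06 and −0.04 after injury. The 67 nuclear oxidative phosphorylation genes had a median of 0.01, as did the 76 cytosolic ribosomal protein genes. Among 35 splicing and RNA processing factors 30 were above 0, and 9 were higher and 1 lower at an unadjusted p under 0.05 (28.6% against 8.68% of all genes). Tra2b, a splicing regulator, rose (0.27, SE 0.06, adjusted p = 0.0234, edgeR's quasi-likelihood test; 0.0855 without the 2 mice high in Ttr), and Srsf3 had a log2 fold change of 0.22 (adjusted p = 0.0514). Without APOE3 replicate 8, where 58 higher and 28 lower genes were called in all, Srsf3, Srsf7, Tra2b and Khdrbs1 were called. In 9 of the 14 other omissions of a mouse no member of the list was called.

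Choroid plexus and ependyma genes had a median of 0.63 over 7 tested members with 0 called. Their summed level was 200 to 281 CPM in APOE3 and 199 to 1774 CPM in APOE4 mice, high in the 2 mice high in Ttr. Without these 2 mice, of the 50 called genes 27 kept their call and 50 their sign, in mice that also gave the calls. The endothelial, mural and meningeal, precursor, interneuron, proliferation, lysosomal, amyloid, chaperone and stress lists had 0 called and medians between 0.00 and 0.10, except the lysosomal list at −0.01. At an unadjusted p under 0.05 their shares ran from 0% (chaperones) to 30% (endothelial, 5 higher and 1 lower), against 8.68% of all genes. The stress list had 25% (1 higher, 6 lower) and the precursor list 20% (2 higher, 0 lower).

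**Figure D4:**
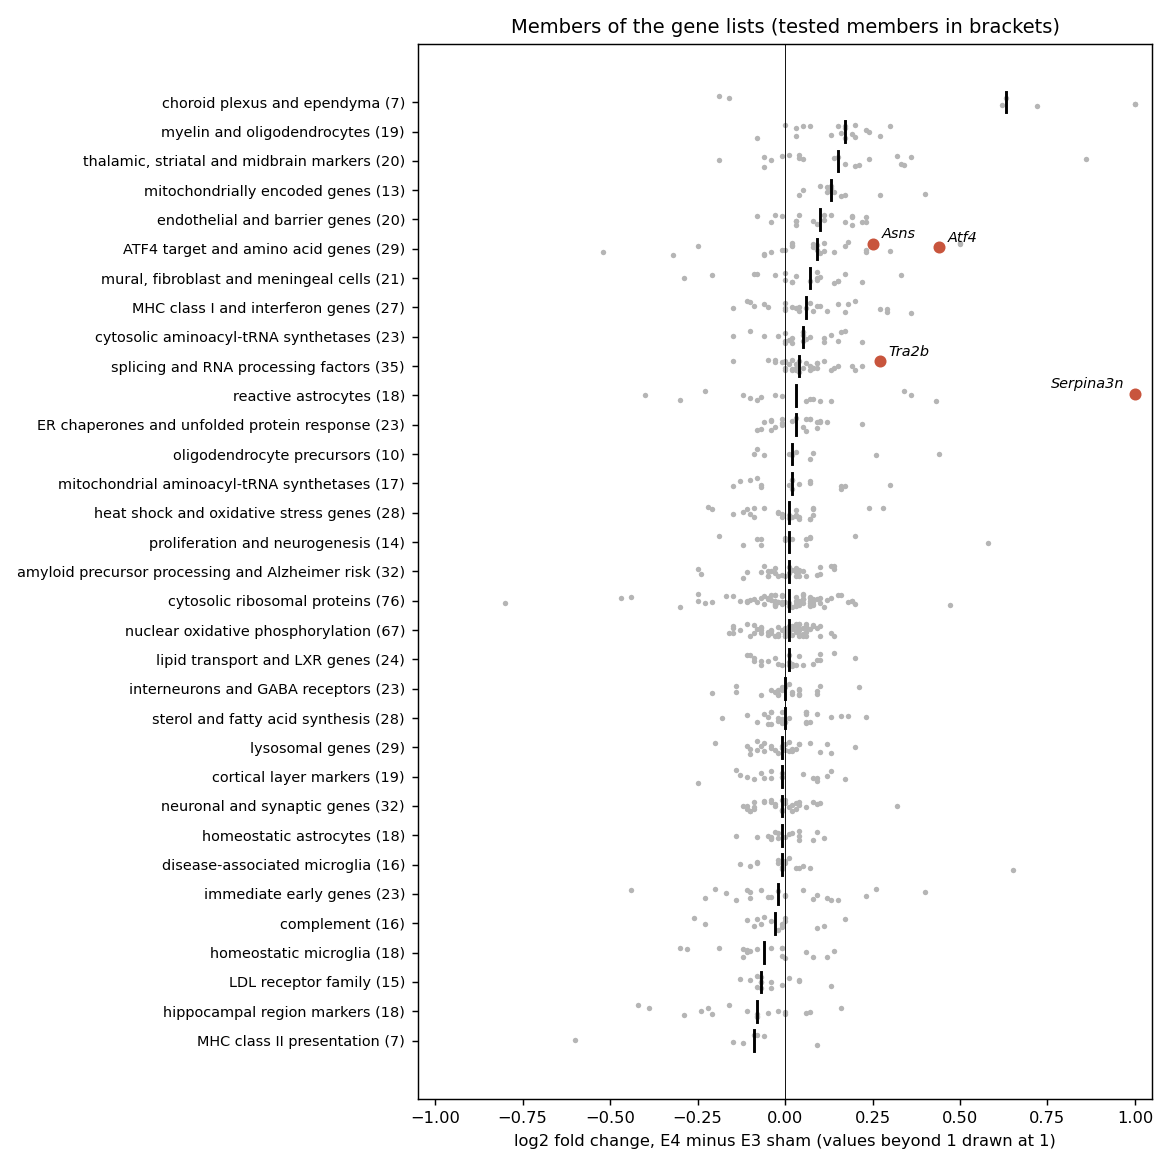
Log2 fold change of APOE4 against APOE3 sham mice (x) for the tested members of 33 gene lists (rows, ordered by median), each point a gene and each black bar a list's median. Values beyond 1 are drawn at 1. Called members are red and named, and 4 genes in 3 lists were called.

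The isoform comparison was repeated in 3 other sets of mice that share no animal with these. Of the 50 called genes 47 could be tested in injured mice with 2 Abca1 copies, where 47 had the same sign and 15 were called in the same direction (0.186% of all genes called there). In sham mice with 1 Abca1 copy, 50 of 50 had the same sign and 38 were called (5.19% of all genes), and in injured mice with 1 copy 48 had the same sign and 26 were called (2.76%). Library depth differed between the Abca1 genotypes, and its part in these numbers of calls was not tested. Over all genes tested in both, the sign was shared by 62.2%, 61.9% and 63%. The 11 genes called in 1 direction in all 4 comparisons were AK010878, Atf4, D430020J02Rik, D630041G03Rik, Eps8l1, Fyn, Gm20186, Kirrel2, Nudt3, Rdh13 and Serpina3m. Atf4 was steady across them, with log2 fold changes of 0.44, 0.45, 0.40 and 0.42 in sham and injured mice with 2 copies and sham and injured mice with 1 copy, and Fyn had 0.66, 0.59, 0.68 and 0.77. Asns was called in both comparisons with 1 copy (0.37 and 0.26) and had 0.23 in injured mice with 2 copies (adjusted p = 0.407).

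Serpina3n was called in the sham comparisons and not after injury. Its log2 fold change was 2.04 in sham mice and 0.35 in injured mice with 2 copies (SE 0.42, adjusted p = 0.977, edgeR's quasi-likelihood test), and 2.31 and 0.59 in sham and injured mice with 1 copy. Its median level was 27.5 and 97.1 CPM in APOE3 and APOE4 sham mice and 186 and 167 CPM in the injured mice of the same genotypes, on the scale set over all 58 mice. The isoform by injury interaction for Serpina3n was 1.68 (95% interval 0.66 to 2.70, unadjusted p = 0.00232), which did not pass the adjustment over all genes (adjusted p = 1). Serpina3m was called after injury too, at 2.88 (adjusted p = 0.0103) against 4.71 in sham mice, and its interaction was 1.82 (95% interval 0.27 to 3.37, unadjusted p = 0.0227, adjusted p = 1). The immunoglobulin genes had positive values in injured mice with 1 copy, where Ighg2c had a log2 fold change of 2.17 (SE 1.35, adjusted p = 0.428) and Ighm one of 0.64 (adjusted p = 0.379). There, 1 of 8 APOE4 mice had 66.4 CPM of Ighg2c while the median was 0.534 CPM.

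No gene passed the test of either interaction (0% called). For isoform by injury, 0 of 14505 genes were called by edgeR's quasi-likelihood test and 0 by DESeq2, with 297 at an unadjusted p under 0.05 (2.05%). For isoform by Abca1 copies, 0 of 14894 were called by either tool, with 1056 at an unadjusted p under 0.05 (7.09%). For 7 of the 50 called genes the unadjusted p was under 0.05 in each, and Frmd4b and Wwc2 were in both; these genes were chosen on a difference that enters each interaction. Frmd4b, a scaffold protein gene, rose by 0.34 in these sham mice and had 0.10 in injured mice with 2 copies and 0.05 in sham mice with 1 copy. Nfu1 had −0.20, −0.12 and −0.11 in the 3 other comparisons, beside −0.35 here. Among the 50, 10 were called in none of the other 3 comparisons: Frmd4b, Gm12663, Gng11, Hcrtr1, Mt3, Nat8f5, Nfu1, Tmc4, Ublcp1 and Wwc2. Of these, Hcrtr1 and Nat8f5 could not be tested in injured mice with 2 copies.

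**Figure D5:**
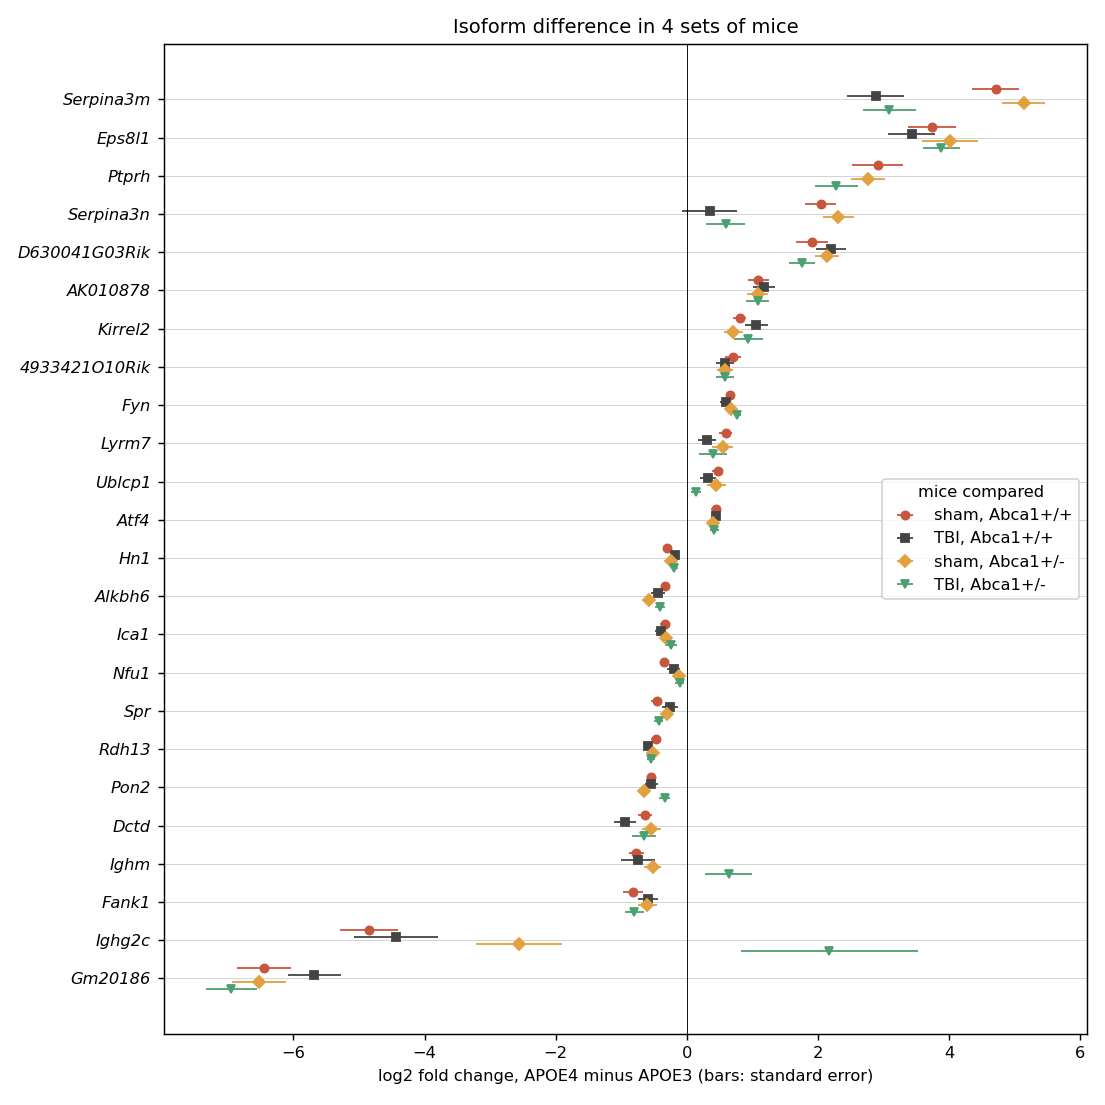
Log2 fold change of APOE4 against APOE3 (x, bars are standard errors) for the 24 genes with the smallest p in sham mice with 2 Abca1 copies (red circles), and for the same genes in injured mice with 2 copies (dark grey squares), sham mice with 1 copy (orange diamonds) and injured mice with 1 copy (green triangles). Ighg2c and Ighm have positive values in injured mice with 1 copy, and Serpina3n lies at 0.35 and 0.59 in the injured mice against 2.04 and 2.31 in the sham mice.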

How the data were processed

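RNA of hippocampus and cortex was sequenced by the authors, who deposited read counts per gene, not normalized, for 15171 genes in 58 mice. Per the labels, the counts were made with Subread 1.5.0 and featureCounts on mm10; strand and multi-mapping settings are not given in the sources used here. In the table, 2 blank lines were dropped and 23 symbols turned into dates were named from their Entrez identifiers, and 0 columns of mice were left out. RefSeq (GRCm38.p6, the same build) matched 14999 genes (98.9%) by identifier.

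Counts of the 15 mice were scaled with TMM factors (0.977 to 1.02), and filterByExpr by group removed 999 genes. The comparison used the quasi-likelihood test of edgeR with robust dispersions and no covariates, at an adjusted p under 0.05; other comparisons used their own mice, and interactions the 4 groups concerned. Total counts of 4421308 to 15941530 put 3 counts, taken as the floor, at 0.679 to 0.188 CPM; intervals of count ratios cover counting error only. Each replicate was a separate mouse, 0 of 49 pairs within groups had identical counts, and replicate numbers follow the order of the samples and pair nothing.

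Members, lists and tests were chosen with earlier results of these data known. Named genes are Apoe, Abca1, the 12 smallest p in each direction, up to 6 called members of a list or, with none, the 2 with the smallest p, called genes within 5 Mb of Apoe, and others said to be named after their values were seen; not every gene so named is described, and 2 are not reported here. The tests were tried on simulated counts. Alternatives were the size factors and Wald test of DESeq2, the exact test of edgeR, omission of the filter, 10 counts in every mouse, sex as a covariate, a fit over all 58 mice, thinning to the lowest total and each mouse left out; those added after seeing the data were each sex alone, libraries over or under 9000000 counts, and the mice with Ttr under 100 CPM. The software was R 4.3.3, edgeR 4.0.16, limma 3.58.1, DESeq2 1.42.0, Python 3.11.15, numpy 2.4.6, scipy 1.17.1, pandas 2.3.3, matplotlib 3.10.9 and biopython 1.88.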

Additional observations from a re-analysis of the deposited data

Results flagged for a closer look

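In 7 of 218 groups of named genes, 1 mouse stood apart from the others of its group by a gap that Dixon's criterion passes at the 95% level, where chance passes about 1 in 20. APOE3 replicate 8 had 146 CPM of Gars against 125 to 133 CPM in the other 7 APOE3 mice, and 324 CPM of Nudt3 against 223 to 251 CPM. APOE4 replicate 1 had 0.288 CPM of Ighg2c against 0 to 0.0982 CPM, 0.072 CPM of Gm20186 where the other 6 had 0, both a matter of at most 4 counts, and 125 CPM of Mt3 against 139 to 149 CPM. APOE4 replicate 2 had 12.5 CPM of Prkcd, a marker of thalamus, against 8.11 to 9.32 CPM. APOE3 replicate 4 had 12.8 CPM of Lyrm7 against 7.24 to 9.55 CPM.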

How the results depend on the processing

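The 30 higher and 20 lower genes became 66 and 43 with the Wald test of DESeq2, 54 and 35 with the exact test of edgeR and 57 and 32 in a fit over all 58 mice, which shared 28 and 14 of the original genes. Thinning gave 16 and 10, males alone 11 and 4, females alone 5 and 5, libraries over 9000000 counts 11 and 3, those under 9000000 5 and 3, and the mice with Ttr under 100 CPM 19 and 13; these settings use fewer counts or fewer mice. With 1 mouse left out the counts were 17 to 58 higher and 10 to 28 lower, the highest of both without APOE3 replicate 8. Both interactions stayed at 0 in each setting run. Of the 50 called genes 19 were called in every setting named in the methods before the added ones, where tested. With each mouse left out 27 were called, again where tested, and none changed sign, though the mice kept are among those that gave the calls. Values that changed sign were those of genes not called. Abca1 had 0.07 in females and 0.08 in libraries over 9000000 counts, and Apoe −0.01 and −0.02 there and −0.06 to 0.04 over the omissions of 1 mouse. Ctss had 0.02 in libraries over 9000000, and Rora −0.05 and Slc4a4 −0.01 in libraries under 9000000; the cause was not tested. The Ttr log2 fold change, 5.73 with all mice, was called by DESeq2 (adjusted p = 0.024) and the exact test (adjusted p = 0.0281). Without the 2 mice high in Ttr the value was −3.02. That omission by itself lowers the value, while its negative sign comes from the mice kept. The APOE3 mice had 0 to 11.1 CPM of Ttr and the remaining APOE4 mice 0.147 to 1.08 CPM. No paired analysis was possible because the labels carry no replicate numbers. Depth limits low genes: at 3 counts the shallowest library shows 0.679 CPM, so absence below that is not shown.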

Other observations

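Beside the called genes, 14 genes did not overlap between the groups and missed the adjusted threshold. Among them Syncrip, an RNA-binding protein gene, had 88.7 to 105 CPM in APOE3 and 106 to 114 CPM in APOE4 mice (adjusted p = 0.0818, edgeR's quasi-likelihood test), and Bcat1, the cytosolic branched-chain aminotransferase gene, had 106 to 116 and 116 to 131 CPM (adjusted p = 0.19). Faim2, an inhibitor of Fas-mediated death in neurons, had 719 to 806 CPM in APOE3 and 639 to 717 CPM in APOE4 mice (adjusted p = 0.0556), and Prnp, the prion protein gene, had 981 to 1110 and 916 to 980 CPM (adjusted p = 0.269). The transcript 4833420G17Rik had 24.8 to 32.2 CPM in APOE3 and 6.71 to 19.1 CPM in APOE4 mice (adjusted p = 0.0818).

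Wdfy1, an endosomal adaptor gene, had 11.6, 40.8 and 63.6 CPM (lowest, median and highest) in the APOE3 mice and 13.1, 14.2 and 17.6 CPM in the APOE4 mice, and a log2 fold change of −1.41 (SE 0.33, adjusted p = 0.129, edgeR). The spread was wide in APOE3 and narrow in APOE4 mice, and the groups overlapped at the low end.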
